A study of Mus musculus with 28 samples.

Results

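The genes described here are 10 genes of protein folding and quality control in the endoplasmic reticulum (ER), measured in mouse liver: Hspa5, Hsp90b1, Calr, Pdia4, Pdia6, Dnajb9, Xbp1, Herpud1, Sdf2l1 and Hyou1. They were chosen by name and matched by the RefSeq accession that the array assigns to each probe, and all 10 were found among the 20300 features tested. Of these, Xbp1 encodes a transcription factor and Herpud1 a membrane protein of ER-associated degradation, so the set is wider than chaperones in the strict sense. The genes were covered by 16 probes, of which Pdia6 and Dnajb9 had 3 each, Hsp90b1 and Calr 2 each and the other genes 1 each. All 16 probes were well above background on all 28 arrays and none was saturated.

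Livers came from mice lacking Fah, the last enzyme of tyrosine breakdown, whose loss lets toxic tyrosine metabolites build up in hepatocytes. The drug NTBC (nitisinone) blocks an earlier step of the pathway and keeps such mice healthy. All 7 groups carried Fah -/- and held 4 arrays each. Fah -/- mice were given full NTBC (7.5 mg/L in the drinking water), reduced NTBC or no NTBC, mice that also lacked p53 (Fah/p53 -/-) were given the same 3 regimens, and mice that also lacked p21 (Fah/p21 -/-) were measured without NTBC. The reduced dose is 25% of the full one in the sample labels and 2.5% for 3 months in the treatment protocol, and how long NTBC was withheld in the groups without it is not stated in these sources. Each array held Cy3-labelled cRNA from 0.1 ug of liver RNA. Nothing in the labels says whether arrays of 1 group are from different mice, and the p-values then reflect no more than array-to-array spread, which may be technical.

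The ER folds secreted and membrane proteins, and hepatocytes, which make most plasma proteins, hold a large amount of it. When unfolded proteins accumulate, the sensors IRE1, PERK and ATF6 start the unfolded protein response: IRE1 splices the Xbp1 transcript, ATF6 is cut to release a transcription factor, and PERK slows translation and raises ATF4. XBP1 and ATF6 then induce chaperones, oxidoreductases and degradation factors, the textbook targets to which these genes belong.

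Levels below are log2 of the processed signal minus the 75th percentile of the same array, and differences are log2 fold changes with their standard errors. A feature was called changed at a limma adjusted p under 0.05, adjusted over all 20300 features, from 1 fit over the 28 arrays. By the scan dates in the file headers, the 3 NTBC regimens were scanned in 3 different calendar years. Regimen and scan year therefore cannot be told apart in any comparison of doses. On full and on reduced NTBC each genotype also filled a slide of its own, whereas the 12 arrays without NTBC lay on 3 slides that each held 2 genotypes. By Xist and Ddx3y, the Fah/p53 -/- arrays without NTBC and 2 of the 4 Fah/p21 -/- arrays were from females and all other arrays from males. Between Fah -/- and Fah/p53 -/- livers without NTBC, genotype and sex therefore cannot be told apart. The same holds for dose and sex in comparisons of Fah/p53 -/- livers without NTBC. A term for sex rests on the Fah/p21 -/- arrays alone, whose females and males lay on different slides. Probes for Trp53 and Cdkn1a gave signal in the knockout groups, with Cdkn1a at 3.24 ± 0.22 (SD, n = 4) in Fah/p21 -/- livers. Where they lie relative to the deleted parts is not known here, so they do not check the labels. Replicate 1 of Fah/p53 -/- on full NTBC stood apart for several of the 10 genes, and results that rest on it are given with and without it. In bulk liver, fewer cells of a type and less RNA per cell cannot be told apart.

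Promoter sequences are shown because the 10 genes are textbook targets of factors that bind the ER stress element (ERSE), in which CCAAT (bound by NF-Y) and CCACG (bound by ATF6 or XBP1) lie 9 bases apart. RefSeq promoters of mouse build GRCm38.p6, from 250 bases before to 50 after the start, were searched on both strands for 9 of the 10 genes, Hyou1 being the exception. ERSE was found in 4 of the 9 (44.4%), Hspa5, Hsp90b1, Calr and Pdia6, against 39 of 32851 promoters of all genes (0.119%). Its shorter form ERSE-II, ATTGG and CCACG 1 base apart, was found in Herpud1, against 12 of 32851 promoters (0.0365%). The single motifs CCAAT and CCACG, which ERSE and ERSE-II contain, were each found in 8 of 9 (88.9%), against 37.4% and 32.8% of all promoters. The element TGACGTGG was in 0 of 9 against 0.676%. Since the 10 genes are textbook targets chosen by name, these shares describe their promoters and do not test the set for enrichment.

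Both parts of each ERSE are in capitals in the following windows, each printed along the gene's own strand, with the reverse-strand form reading CGTGG then ATTGG. The Hspa5 window lies at chr2:34772015-34772053 (plus strand), with the element from -65 to -47 relative to the start. The Hsp90b1 window at chr10:86705523-86705666 (minus strand) holds 2 elements, from -212 to -194 and, in reverse form, from -107 to -89. The Calr window at chr8:84847065-84847103 (minus strand) holds 1 in reverse form from -162 to -144, and the Pdia6 window at chr12:17266481-17266519 (plus strand) holds 1 from -98 to -80. The Herpud1 window at chr8:94386367-94386397 (plus strand) holds ERSE-II from -52 to -42. The Dnajb9 window, the last 100 bases before the start at chr12:44210069-44210168 (minus strand), is added because the results turn on this gene as well, and no capitals appear in it. Neither spaced element was found in its promoter, nor in those of Pdia4, Xbp1 and Sdf2l1.
Hspa5: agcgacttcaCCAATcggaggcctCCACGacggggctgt
Hsp90b1: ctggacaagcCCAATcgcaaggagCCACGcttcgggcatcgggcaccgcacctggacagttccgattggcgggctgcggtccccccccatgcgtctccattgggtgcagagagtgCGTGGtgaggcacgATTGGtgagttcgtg
Calr: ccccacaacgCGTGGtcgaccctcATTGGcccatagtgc
Pdia6: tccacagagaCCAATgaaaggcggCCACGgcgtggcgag
Herpud1: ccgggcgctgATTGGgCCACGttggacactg
Dnajb9: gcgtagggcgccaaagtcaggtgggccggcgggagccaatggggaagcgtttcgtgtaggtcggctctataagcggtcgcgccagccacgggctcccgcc

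Without NTBC, Herpud1 fell about 4-fold in both genotypes, and Dnajb9 rose, 3.06-fold in Fah -/- and 1.84-fold in Fah/p53 -/- livers. Of the other 8 genes, 5 fell in Fah -/- and 4 in Fah/p53 -/- livers, the most being Pdia4 in the latter (2.58-fold), and several of these calls depended on the scaling. Hspa5, which encodes the master chaperone BiP, was not called against full NTBC in either genotype with this scaling, but was called higher in both with quantile scaling and in the deposited values. In Fah -/- livers, 7 of 10 genes were called between no and full NTBC, 1 higher and 6 lower, where 70.9% of all features were called. In Fah/p53 -/- livers 6 of 10 were called, 1 higher and 5 lower, where 69.7% of all features were called. The median difference of the 10 genes was -0.56 and -0.48, and that of all features -0.17 and -0.14. The share of genes called was therefore near the background in both comparisons.

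Reduced NTBC gave 7 of 10 called in Fah -/- livers, 1 higher and 6 lower, where 39.8% of all features were called. In Fah/p53 -/- livers it gave 6 of 10, 1 higher and 5 lower, where 39.8% of all features were called. The median of the 10 genes was -0.45 and -0.47, beside -0.03 and 0.02 over all features. Between no and reduced NTBC, 5 of 10 were called in Fah -/- livers, 2 higher and 3 lower, where 64.3% of all features were called. The same count in Fah/p53 -/- livers was 5 of 10, 1 higher and 4 lower, where 61.3% of all features were called. The counts for reduced against full NTBC depended on the scaling. In Fah -/- livers they were 0 with normexp, 4 with quantile scaling (Calr, Pdia6, Dnajb9 and Sdf2l1) and 3 in the deposited values (the same without Calr). The Fah/p53 -/- counts were 2 with each, Dnajb9 being called every time, with Herpud1 in the latter settings and Hspa5, then higher, with normexp. These dose comparisons share arrays within a genotype (the full, reduced and no NTBC groups each enter 2 of them), so the counts are not independent.

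**Figure D1:**
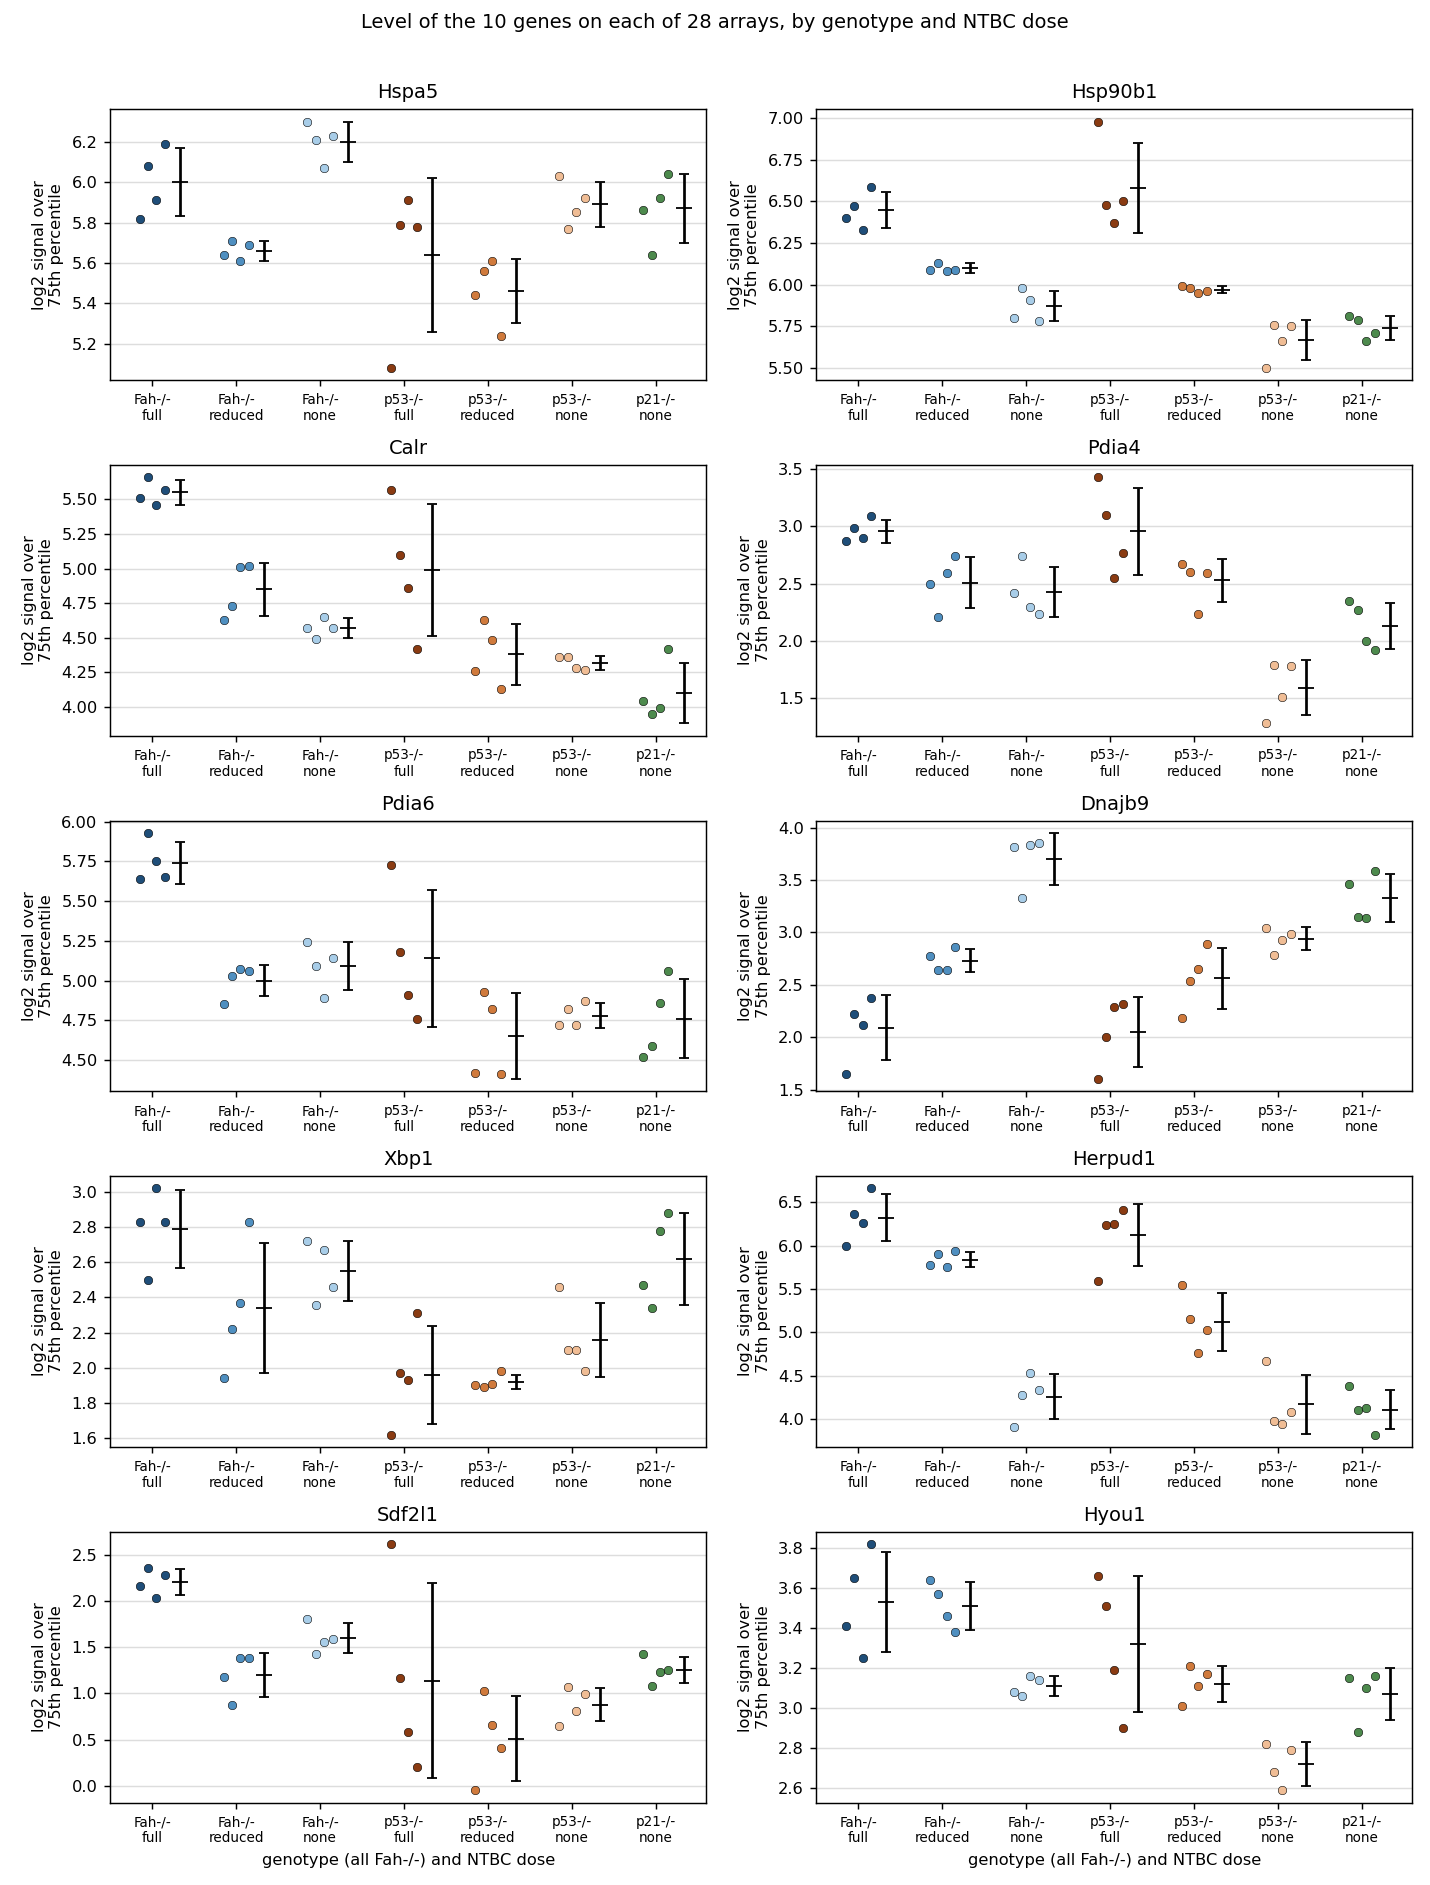
Log2 level relative to the array's 75th percentile for each of the 10 genes on all 28 arrays, by group, with points for arrays and bars for the mean ± SD of 4. Herpud1 lies between 5.59 and 6.66 in both groups on full NTBC and between 3.82 and 4.67 in the 3 groups without NTBC, whereas Dnajb9 runs from 1.60 to 2.37 on full NTBC and from 2.78 to 3.85 without.

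Herpud1 encodes a membrane protein of the ER that recruits factors of ER-associated degradation. Its level in Fah -/- livers was 6.0, 6.37, 6.26 and 6.66 on full NTBC, 5.78, 5.90, 5.75 and 5.94 on reduced NTBC, and 3.91, 4.28, 4.53 and 4.34 without. The Fah/p53 -/- values were 5.59, 6.24, 6.25 and 6.41 on full, 5.55, 5.15, 4.76 and 5.03 on reduced, and 4.67, 3.98, 3.94 and 4.08 without, and in Fah/p21 -/- livers without NTBC 4.38, 4.11, 4.13 and 3.82. Every array without NTBC was below every array on reduced or full NTBC, and the full and reduced groups did not overlap within either genotype. Without NTBC it fell by 2.06 ± 0.20 with p53 (limma adjusted p = 2.55e-09, 4.17-fold) and by 1.95 ± 0.20 without it (adjusted p = 5.65e-09, 3.88-fold). The step from full to reduced NTBC was -1.0 ± 0.20 in Fah/p53 -/- (adjusted p = 0.000319, lost with normexp at -0.34, adjusted p = 0.273) and -0.48 ± 0.20 in Fah -/- livers, where it was not called (adjusted p = 0.0545). That last value passed without replicate 1 of the full group (adjusted p = 0.032). From reduced to no NTBC it fell by 1.58 ± 0.20 and 0.96 ± 0.20 in the Fah -/- and Fah/p53 -/- genotypes (adjusted p = 3.41e-07 and 0.000205).

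Dnajb9 encodes a J-domain cochaperone of BiP that also holds the sensor IRE1 inactive. In Fah -/- livers its level was 1.65, 2.22, 2.12 and 2.37 on full NTBC, 2.77, 2.64, 2.64 and 2.86 on reduced NTBC, and 3.81, 3.33, 3.83 and 3.85 without. Without p53 it was 1.60, 2.0, 2.29 and 2.32 on full, 2.18, 2.54, 2.65 and 2.89 on reduced, and 3.04, 2.78, 2.93 and 2.98 without. In Fah/p21 -/- livers without NTBC it was 3.46, 3.15, 3.14 and 3.59. The 3 Fah -/- groups did not overlap and rose in order from full through reduced to no NTBC, and in Fah/p53 -/- livers the reduced group overlapped both others. Without NTBC Dnajb9 rose by 1.62 ± 0.17 in Fah -/- (adjusted p = 1.92e-08) and by 0.88 ± 0.17 in Fah/p53 -/- livers (adjusted p = 9.65e-05). Reduced NTBC raised it by 0.64 ± 0.17 and 0.51 ± 0.17 (adjusted p = 0.00535 and 0.0227). The latter was lost without any 1 of 3 Fah/p53 -/- arrays, replicates 3 and 4 on reduced and replicate 1 on full NTBC (adjusted p from 0.0554 to 0.111). From reduced to no NTBC it rose by 0.97 ± 0.17 in Fah -/- livers (adjusted p = 4.26e-05), and in Fah/p53 -/- livers the difference was 0.37 ± 0.17 (adjusted p = 0.069). The latter passed without replicate 4 on reduced NTBC (adjusted p = 0.0295) and with replicate number as a block (adjusted p = 0.0373). It also passed with quantile scaling (0.46, adjusted p = 0.0341) and in the deposited values (0.51, adjusted p = 0.022), but not with normexp or with sex as a term. When probes were tested singly, 0 of 3 were called for it. All 3 probes were called between no and full NTBC, at 1.43 to 1.62 in Fah -/- and 0.69 to 0.88 in Fah/p53 -/- livers.

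Hspa5 encodes BiP, the Hsp70 of the ER and a standard readout of the unfolded protein response. Its level was 5.82, 6.08, 5.91 and 6.19 on full, 5.64, 5.71, 5.61 and 5.69 on reduced, and 6.30, 6.21, 6.07 and 6.23 on no NTBC in Fah -/- livers. The values without p53 were 5.08, 5.79, 5.91 and 5.78 on full, 5.44, 5.56, 5.61 and 5.24 on reduced, and 6.03, 5.77, 5.85 and 5.92 without, and in Fah/p21 -/- livers 5.86, 5.64, 5.92 and 6.04. Reduced NTBC gave the lowest mean in each genotype, and the groups without NTBC overlapped those on full NTBC. Against full NTBC, the difference without NTBC was 0.20 ± 0.14 in Fah -/- (adjusted p = 0.187, 95% interval -0.08 to 0.48) and 0.25 ± 0.14 in Fah/p53 -/- livers (adjusted p = 0.0995, -0.03 to 0.53). Against reduced NTBC it rose by 0.54 ± 0.14 and 0.43 ± 0.14 (adjusted p = 0.00145 and 0.00867), with no overlap of arrays in either genotype. From full to reduced NTBC the difference was -0.34 ± 0.14 in Fah -/- (adjusted p = 0.0513) and -0.18 in Fah/p53 -/- livers (adjusted p = 0.316). Without replicate 1 on full NTBC, at 5.08, the latter became -0.36 (adjusted p = 0.0118), whereas with normexp it was called higher, at 0.59 (adjusted p = 0.027). Without replicate 1 of the Fah -/- full group the former passed (adjusted p = 0.0397). Neither rise from reduced to no NTBC was called with normexp (0.45 and 0.06, adjusted p = 0.109 and 0.887). With quantile scaling and in the deposited values Hspa5 was called higher without than with full NTBC in both genotypes (0.88 to 1.04). Without replicate 3 of the Fah/p53 -/- full group, the no against full NTBC value passed (adjusted p = 0.035).

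The other Hsp70 and Hsp90 family members of the ER were lower without NTBC, by amounts that depended on the probe and the scaling. Hsp90b1, the Hsp90 of the ER, ranged from 6.33 to 6.59 in Fah -/- livers on full NTBC, from 6.08 to 6.13 on reduced NTBC and from 5.78 to 5.98 without. Its Fah/p53 -/- levels ranged from 6.37 to 6.98, from 5.95 to 5.99 and from 5.50 to 5.76. None of these 3 groups overlapped within a genotype. It fell by 0.58 ± 0.10 without NTBC in Fah -/- (adjusted p = 1.78e-05) and by 0.91 ± 0.10 in Fah/p53 -/- livers (adjusted p = 2.32e-08). With quantile scaling and in the deposited values the Fah -/- difference of Hsp90b1 turned to a rise of 0.20, not called (adjusted p = 0.0668 and 0.0683). Its second, dimmer probe gave -1.44 ± 0.17 and -1.40 ± 0.17 for the same comparisons. Reduced NTBC gave -0.35 ± 0.10 and -0.61 ± 0.10 (adjusted p = 0.00779 and 4.65e-05), the second of which became 0.01 with normexp background correction, and the dimmer probe gave -0.01 and -0.74. Hyou1, a large Hsp70-related protein and nucleotide exchange factor of BiP, ranged from 3.25 to 3.82 on full NTBC and from 3.06 to 3.16 without in Fah -/- livers, and from 2.90 to 3.66 and 2.59 to 2.82 in Fah/p53 -/- livers. It fell without NTBC by 0.42 ± 0.13 and 0.60 ± 0.13 (adjusted p = 0.00611 and 3e-04), and reduced NTBC gave -0.02 and -0.19 (adjusted p = 0.912 and 0.255). Against reduced NTBC, Hyou1 fell by 0.40 ± 0.13 and 0.41 ± 0.13 without the drug (adjusted p = 0.0102 and 0.00994). The first was not called with normexp, quantile scaling or the deposited values (-0.26, -0.22 and -0.20, adjusted p = 0.343, 0.141 and 0.136). The second was lost with normexp (adjusted p = 0.0941) and with sex as a term (-0.29, adjusted p = 0.312). Hsp90b1 fell there by 0.23 ± 0.10 and 0.30 ± 0.10 (adjusted p = 0.0456 and 0.0116), the first being lost without any 1 of 7 of the 8 arrays, all but Fah -/- replicate 2 without NTBC (adjusted p from 0.0541 to 0.112). Scaling turned the direction of both. The first was called higher with quantile scaling (0.32, adjusted p = 0.00465) and in the deposited values (0.29, adjusted p = 0.0142), and the second became 0.09 and 0.15 (adjusted p = 0.393 and 0.18) and was lost with sex as a term (adjusted p = 0.0581).

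Calr (calreticulin, a calcium-binding chaperone of glycoproteins) and the disulfide isomerases Pdia4 and Pdia6 each had their highest Fah -/- levels on full NTBC. Pdia4 was 2.87, 2.99, 2.90 and 3.09 there, 2.50, 2.21, 2.59 and 2.74 on reduced and 2.42, 2.74, 2.30 and 2.24 on no NTBC. Fah/p53 -/- livers had 3.43, 3.1, 2.55 and 2.77 on full, 2.67, 2.60, 2.24 and 2.59 on reduced and 1.28, 1.79, 1.51 and 1.78 without, and in Fah/p21 -/- livers 2.35, 2.27, 2.0 and 1.92. The 4 Fah/p53 -/- arrays without NTBC were below all 24 others. Pdia4 fell without NTBC by 1.37 ± 0.17 in Fah/p53 -/- (adjusted p = 1.27e-07, 2.58-fold) and by 0.53 ± 0.17 in Fah -/- livers (adjusted p = 0.00657). From reduced to no NTBC it fell by 0.93 ± 0.17 in Fah/p53 -/- livers (adjusted p = 4.17e-05) and was -0.09 in Fah -/- livers (adjusted p = 0.668). Reduced NTBC gave -0.45 ± 0.17 and -0.43 ± 0.17 (adjusted p = 0.035 and 0.0416). The first was lost without replicate 2 or 4 on full or replicate 1 or 2 on reduced NTBC (adjusted p from 0.0667 to 0.129), and the second without replicate 1 or 2 on full or 2, 3 or 4 on reduced NTBC (adjusted p from 0.056 to 0.191).

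Calr ranged from 5.46 to 5.66 on full, 4.63 to 5.02 on reduced and 4.49 to 4.65 on no NTBC in Fah -/- livers. The ranges without p53 were 4.42 to 5.57, 4.13 to 4.63 and 4.27 to 4.36, so that only the full and no NTBC groups were separate. It fell by 0.98 ± 0.16 without NTBC in Fah -/- (adjusted p = 1.16e-05) and by 0.67 ± 0.16 in Fah/p53 -/- livers (adjusted p = 0.000881). Reduced NTBC gave -0.71 ± 0.16 and -0.61 ± 0.16 (adjusted p = 0.00152 and 0.0046), the second of which became 0.05 with normexp. The second Calr probe was called without NTBC too, at -1.28 and -1.46. Pdia6 fell by 0.65 ± 0.16 without NTBC in Fah -/- livers (adjusted p = 0.00107) and by 0.74 ± 0.16 on reduced NTBC (adjusted p = 0.000927). In Fah/p53 -/- livers its values were -0.36 ± 0.16 without NTBC (adjusted p = 0.05, not called) and -0.50 ± 0.16 on reduced NTBC (adjusted p = 0.0177). The former passed without replicate 3 or 4 on full NTBC (adjusted p = 0.0283 and 0.0114), and the latter was lost without replicate 1 on full or 1 or 4 on reduced NTBC (adjusted p from 0.0595 to 0.103). The no NTBC value of Pdia6 in Fah -/- livers was 0.03 with quantile scaling, and its reduced NTBC value in Fah/p53 -/- livers 0.14 with normexp.

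Sdf2l1, a partner of BiP's cochaperone complexes, had the widest spread within a group, an SD of 1.06 (n = 4) in Fah/p53 -/- livers on full NTBC. It ranged from 2.04 to 2.36 on full, 0.87 to 1.38 on reduced and 1.43 to 1.81 on no NTBC in Fah -/- livers, with no overlap between the 3 groups. Its level in Fah/p53 -/- livers on full NTBC was 2.62, 1.17, 0.58 and 0.20, from near the bottom to the top of its 28 arrays, and it ranged from -0.05 to 1.03 on reduced and 0.65 to 1.07 on no NTBC. Among dose comparisons only reduced against full NTBC in Fah -/- livers was called, at -1.0 ± 0.31 (adjusted p = 0.0134), and this was lost with normexp (-0.90, adjusted p = 0.0784). The same step in Fah/p53 -/- livers was -0.63 ± 0.31 (adjusted p = 0.114), and became -0.14 (adjusted p = 0.647) without replicate 1 and -0.94 (adjusted p = 0.0157, called) without replicate 4 on full NTBC. The fit uses 1 spread for each gene over all 7 groups. The difference without NTBC in Fah -/- livers, -0.61 ± 0.31, was not called although the arrays were separate (adjusted p = 0.085), and was called when only its 2 groups were fitted (adjusted p = 0.00142), as was the rise of 0.39 from reduced to no NTBC (adjusted p = 0.0418).

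Xbp1 encodes the transcription factor made active by IRE1 splicing, and its single probe gives a level that does not separate spliced from unspliced transcripts here. It was 2.83, 2.50, 3.02 and 2.83 on full, 1.94, 2.22, 2.37 and 2.83 on reduced, and 2.72, 2.36, 2.67 and 2.46 on no NTBC in Fah -/- livers. Levels without p53 were 1.62, 1.97, 1.93 and 2.31 on full, 1.90, 1.89, 1.91 and 1.98 on reduced, and 2.46, 2.10, 2.10 and 1.98 without, and in Fah/p21 -/- livers 2.47, 2.34, 2.78 and 2.88. The doses overlapped in both genotypes. Without NTBC it differed from full NTBC by -0.24 (95% interval -0.59 to 0.11) in Fah -/- and 0.20 (-0.15 to 0.55) in Fah/p53 -/- livers, neither called (adjusted p = 0.208 and 0.289). Reduced NTBC gave -0.45 ± 0.17 in Fah -/- livers (adjusted p = 0.0352), lost without replicate 1, 3 or 4 on full or 1, 2 or 3 on reduced NTBC (adjusted p from 0.055 to 0.157), and -0.04 in Fah/p53 -/- livers (adjusted p = 0.879).

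**Figure D2:**
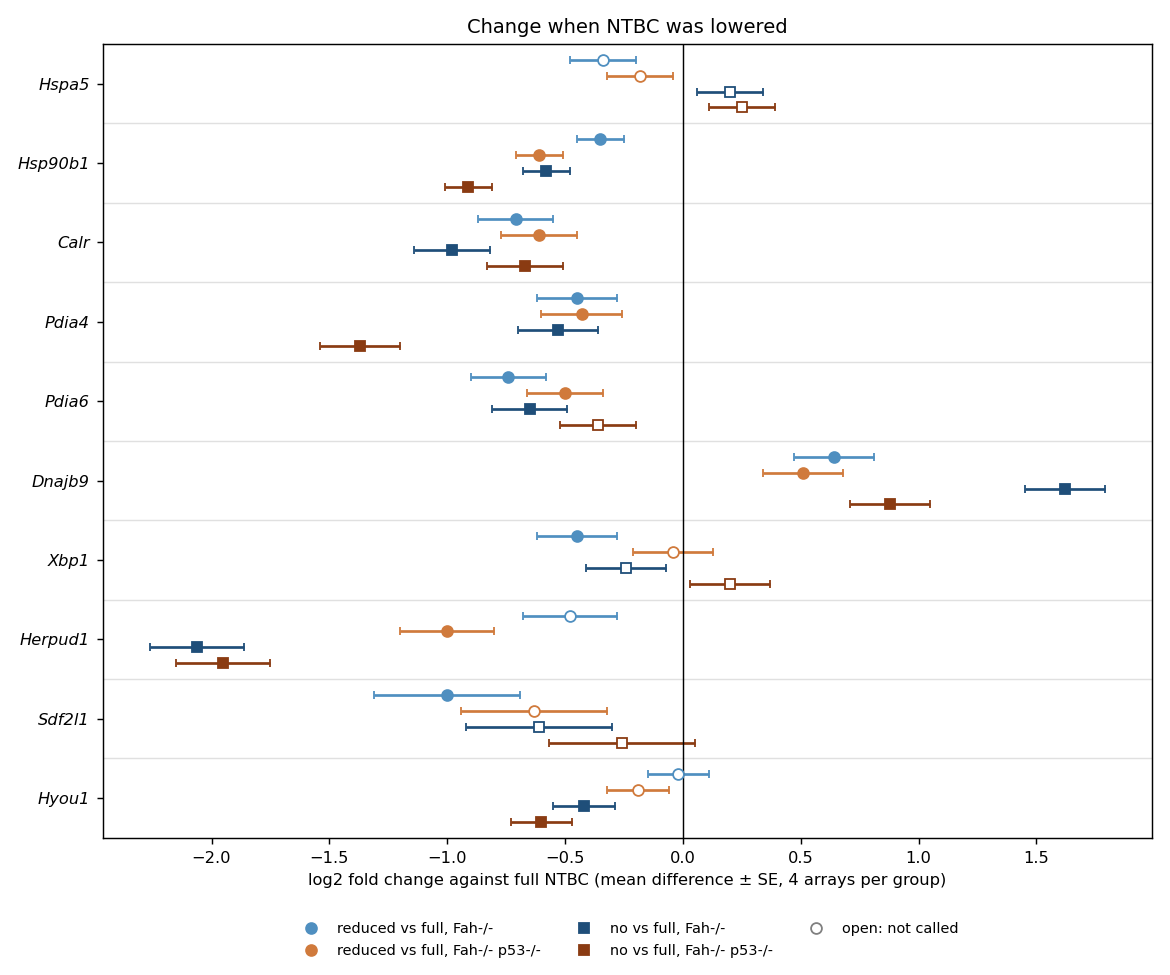
Log2 difference ± SE from full NTBC for the 10 genes on reduced NTBC and without NTBC in Fah -/- and Fah/p53 -/- livers, with open symbols for differences that were not called. Herpud1 and Dnajb9 reach -2.06 and 1.62 without NTBC in Fah -/- livers and lie furthest from 0, while Hspa5, Hsp90b1, Calr and Pdia6 change sign under other scalings in some comparisons.

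Markers of hepatocytes and of other cells moved across the same dose groups. The signals of 6 measured hepatocyte genes (of 8 listed), such as albumin and apolipoproteins, were summed before the log2 was taken, which weighs bright genes most. In Fah -/- livers the log2 sum ranged from 11.29 to 11.60 on full, 10.67 to 10.81 on reduced and 9.83 to 10.13 on no NTBC, and all 6 genes were lower without NTBC. The 10 macrophage markers, summed likewise, ranged from 5.55 to 6.29 on full and from 6.43 to 8.56 without NTBC, and 10 were higher. In Fah/p53 -/- livers the hepatocyte range was 11.41 to 11.52 on full and 9.74 to 9.91 without NTBC, and macrophage markers, 9 of 10 higher, ran from 5.50 to 6.35 and from 6.83 to 7.73. Of 8 pancreatic acinar markers measured (of 16 listed), which cells rich in ER express, 4 were higher and 4 lower without NTBC in both genotypes. Of the listed ones with a probe, Ctrb1, Cel and Amy2a5 were above background on all 28 arrays, Cela1 on 26, Try5 on 25 and Cela3b on 22, and the other 8 on 1 to 12, Ptf1a and Cpb1 on 1 each. Over all features, 29.3% were called higher and 41.6% lower without NTBC in Fah -/- livers, and 29.6% and 40.1% in Fah/p53 -/- livers. The part of these cells in the results above was not tested.

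Livers without p53 had lower levels of some of the 10 genes at each dose, Xbp1 on full NTBC, Herpud1 on reduced NTBC, and Pdia4 and Dnajb9 without NTBC, and none was called higher. On full NTBC, 4 of 10 genes were called, all lower, where 13.9% of all features were called. On reduced NTBC 2 of 10 were called, both lower, where 15.6% of all features were called. Without NTBC 3 of 10 were called, all lower, where 14.3% of all features were called. The medians of the 10 genes were -0.29, -0.37 and -0.35, against 0.01, 0.04 and 0.01 over all features. Since each genotype filled its own slide on full and on reduced NTBC, genotype and slide cannot be told apart there.

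On full NTBC, Xbp1 was lower without p53 by 0.83 ± 0.17 (adjusted p = 0.00148, 1.78-fold), and its 4 Fah/p53 -/- arrays (1.62 to 2.31) lay below all 4 Fah -/- arrays (2.50 to 3.02). The call held under the other scalings, between -1.14 with normexp and -0.72 in the deposited values (adjusted p = 0.00283 and 0.00623). Sdf2l1 was lower by 1.07 ± 0.31, Pdia6 by 0.60 ± 0.16 and Calr by 0.56 ± 0.16 (adjusted p = 0.0243, 0.0153 and 0.0233), and in all 3 the groups overlapped because Fah/p53 -/- replicate 1 was as high as Fah -/- arrays. Without that array they were -1.56, -0.79 and -0.76 (adjusted p = 2.27e-05, 0.000643 and 0.0012). All 3 calls were lost without Fah -/- replicate 2 or Fah/p53 -/- replicate 3 or 4, and those of Calr and Sdf2l1 also without Fah -/- replicate 4. Across these omissions the adjusted p ranged from 0.0506 to 0.108 for Calr, 0.0545 to 0.0671 for Pdia6 and 0.0544 to 0.11 for Sdf2l1. With quantile scaling Calr and Pdia6 were no longer called (adjusted p = 0.0611 and 0.0733), and fitting only the 2 groups left Xbp1 alone. Hspa5 was -0.36 ± 0.14 (adjusted p = 0.0768) and passed with normexp (-0.85, adjusted p = 0.0133) and without Fah/p53 -/- replicate 3 (adjusted p = 0.0387).

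On reduced NTBC, Herpud1 was lower without p53 by 0.72 ± 0.20 (adjusted p = 0.0142), its arrays ranging from 4.76 to 5.55 against 5.75 to 5.94. The call was lost without Fah/p53 -/- replicate 3 (adjusted p = 0.0598). Hyou1 was lower by 0.39 ± 0.13 (adjusted p = 0.0471), at 3.01 to 3.21 against 3.38 to 3.64, and was lost without any 1 of 7 of the 8 arrays, all but Fah -/- replicate 4 (adjusted p from 0.0666 to 0.127). Neither gene was called with normexp, with quantile scaling or in the deposited values. Calr (-0.47, adjusted p = 0.0525) passed without Fah -/- replicate 1 or Fah/p53 -/- replicate 2 (adjusted p = 0.0493 and 0.0424), and Xbp1 (-0.42, adjusted p = 0.0953) without Fah -/- replicate 1 (adjusted p = 0.039). With the mean of a gene's probes, Calr and Pdia6 were called lower (-0.57 and -0.51, adjusted p = 0.0197 and 0.0246). When probes were tested singly, 1 of 2 Calr probes and 1 of 3 Pdia6 probes were called, the lowest values being -0.68 and -0.77.

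Without NTBC, Pdia4 was lower without p53 by 0.83 ± 0.17 (adjusted p = 0.00187) and Dnajb9 by 0.77 ± 0.17 (adjusted p = 0.00502), with no overlap of arrays in either. Both held in each leave-one-out fit and in each scaling. With slide as a fixed block Pdia4 was -0.98 (adjusted p = 0.0236) and Dnajb9 -0.70 (adjusted p = 0.0875), and on the 1 slide shared by both genotypes they were -0.93 and -0.61 (adjusted p = 0.112 and 0.223). The Fah/p53 -/- arrays here were all from females and the Fah -/- arrays all from males, so genotype and sex cannot be told apart. A sex term, which rests on the Fah/p21 -/- arrays alone, does not separate them. With sex as a term Pdia4 and Dnajb9 were -1.18 and -0.71 (adjusted p = 0.0382 and 0.298), so that only Pdia4 kept its call under the slide block and the sex term. Hyou1 was lower by 0.39 ± 0.13 (adjusted p = 0.0477) and was lost with either term (adjusted p = 0.173 and 0.666) and without any 1 of 7 of the 8 arrays, all but Fah/p53 -/- replicate 1 (adjusted p from 0.0658 to 0.124). Herpud1, the gene most lowered by withdrawal of NTBC, differed by -0.10 (adjusted p = 0.793). When probes were tested singly, 1 of 2 Calr probes (-0.62 and -0.25) and 1 of 3 Pdia6 probes (-0.60 to -0.31) were called. Of 9 measured markers (of 12 listed) of plasma cells and B cells, the former rich in ER, 6 were lower without p53. The log2 of their summed signals ranged from 2.62 to 2.92 against 3.21 to 3.48. Their defining gene Tnfrsf17 was above background on 0 arrays and Irf4 on 1, and the part of these cells in the result was not tested.

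**Figure D3:**
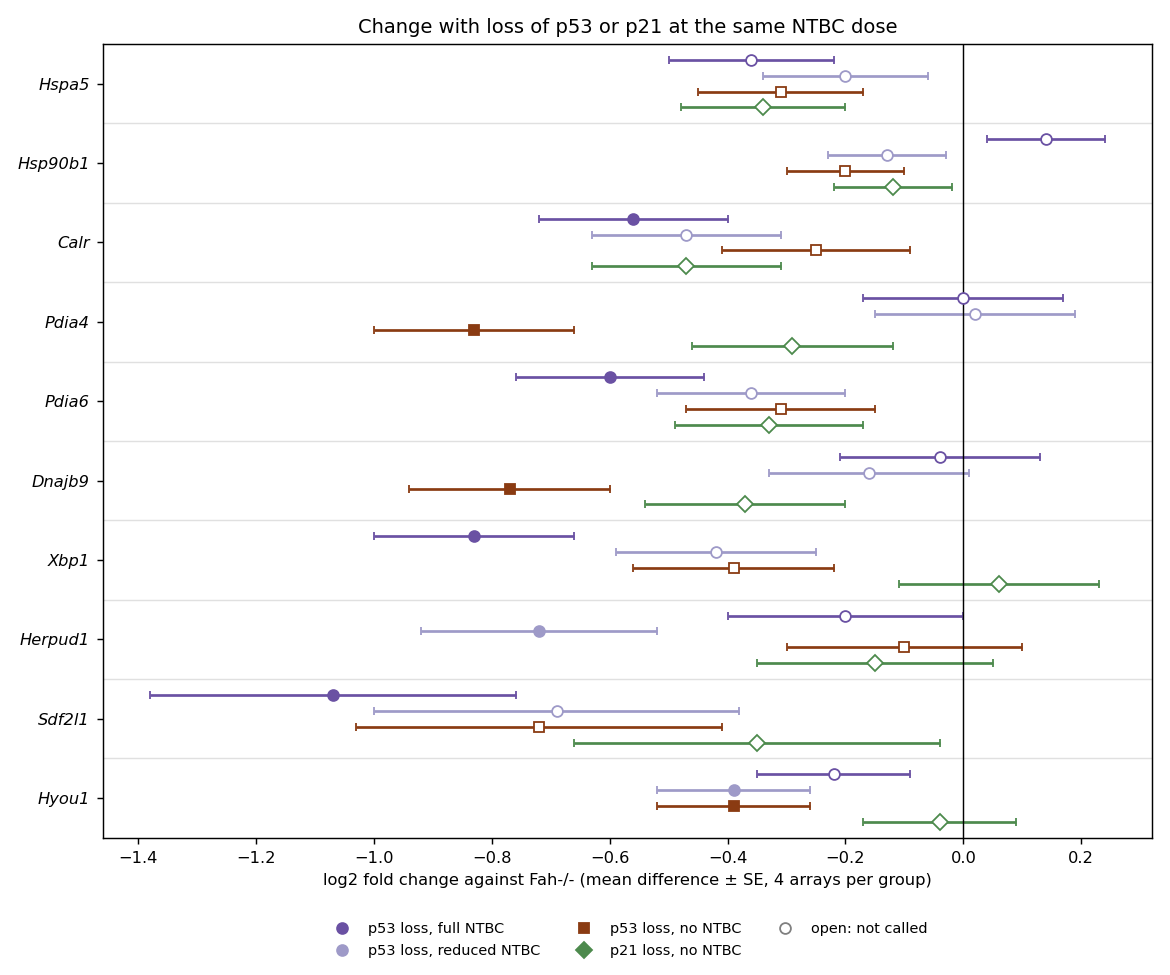
Log2 difference ± SE between knockout and Fah -/- livers at the same NTBC dose for the 10 genes, for loss of p53 at 3 doses and loss of p21 without NTBC, with open symbols for differences that were not called. Filled symbols lie below 0 only, from Sdf2l1 at -1.07 on full NTBC to Hyou1 at -0.39, and no p21 symbol is filled.

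Loss of p21, the cell-cycle inhibitor that p53 induces, gave 0 of 10 genes called without NTBC by limma, where 7.53% of all features were called. At an unadjusted p under 0.05, 3 of 10 passed: Calr at -0.47 (95% interval -0.80 to -0.13), Hspa5 at -0.34 (-0.62 to -0.06) and Dnajb9 at -0.37 (-0.73 to -0.01). Their adjusted p was 0.0841, 0.136 and 0.2, and Calr passed without Fah/p21 -/- replicate 4 (adjusted p = 0.0444), with quantile scaling and in the deposited values (-0.53 in both, adjusted p = 0.0402 and 0.0348). Of the 4 Fah/p21 -/- arrays 2 were from females, and the Fah -/- arrays were all from males. With sex as a term Calr, Hspa5 and Dnajb9 were -0.36, -0.22 and -0.34 (adjusted p = 0.433, 0.604 and 0.519). With slide as a fixed block they were -0.47, -0.28 and -0.39 (adjusted p = 0.168, 0.427 and 0.413). When probes were tested singly, 1 of the 2 Calr probes was called (values of -0.63 and -0.47). Of the 9 plasma cell and B cell markers 4 were lower with p21 loss. Directly compared without NTBC, Fah/p53 -/- and Fah/p21 -/- livers differed in 1 of 10 genes, where 11% of all features were called. That gene was Pdia4, lower in Fah/p53 -/- livers by 0.54 ± 0.17 (adjusted p = 0.0369), at 1.28 to 1.79 against 1.92 to 2.35. It was lost with normexp, in the deposited values and with slide as a block (adjusted p = 0.193, 0.0534 and 0.0762). Omitting Fah/p21 -/- replicate 1 or 2 or Fah/p53 -/- replicate 1 or 3 also ended the call (adjusted p from 0.0821 to 0.0929). With sex as a term Pdia4 was -0.71 (adjusted p = 0.0298). The 3 arrays farthest from their groups were Fah/p53 -/- replicate 1 and Fah/p21 -/- replicates 1 and 2. Without them Pdia4 was -0.27 (adjusted p = 0.424), but the arrays left were Fah/p53 -/- females and Fah/p21 -/- males. Genotype and sex cannot be told apart in that fit. Xbp1, at -0.46 (adjusted p = 0.0847), passed without Fah/p53 -/- replicate 1 (adjusted p = 0.0312).

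Whether p53 loss altered the response to NTBC was tested as the difference between the 2 genotypes' dose differences. For no against full NTBC, 1 of 10 genes was called, where 9.12% of all features were called. Of the groups compared there, the Fah/p53 -/- one without NTBC was from females and the others from males. In these differences p53 loss and sex therefore cannot be told apart. The 2 genotypes also lay on separate slides on full NTBC, so p53 loss and slide cannot be told apart either. Pdia4 fell by 0.83 ± 0.24 more in Fah/p53 -/- than in Fah -/- livers (adjusted p = 0.0269, 95% interval of the difference -1.32 to -0.35). The call was lost without replicate 1 of either full group (-0.68 without the Fah/p53 -/- one), Fah -/- replicate 2 or Fah/p53 -/- replicate 3 on no NTBC (adjusted p from 0.052 to 0.0596), and with normexp (-0.64, adjusted p = 0.548). The rise of Dnajb9 was smaller in Fah/p53 -/- livers by 0.73 ± 0.25 (adjusted p = 0.0628, not called). It passed with quantile scaling (-0.82, adjusted p = 0.0451) and without Fah -/- replicate 4 on full NTBC (adjusted p = 0.0464), Fah -/- replicate 2 on no NTBC (adjusted p = 0.0316) or Fah/p53 -/- replicate 1 on full NTBC (-0.88, adjusted p = 0.0217). For reduced against full NTBC, 0 of 10 genes were called by limma and 0 had an unadjusted p under 0.05, where 10.4% of all features were called. Each genotype filled its own slide at both of these doses, so genotype and slide cannot be told apart there. The difference for Herpud1 was -0.52 ± 0.28 (95% interval -1.09 to 0.06). The dimmer Hsp90b1 probe, not used for the count, was called, at -0.73 ± 0.24 (adjusted p over probes = 0.0495).

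How the arrays were scaled set the direction of the smaller differences. Without NTBC the median of all features was -0.17 in Fah -/- livers with 75th percentile scaling, -0.40 with normexp, 0.01 with quantile scaling and 0.00 in the values the authors deposited. Herpud1 was called under all 4, at -2.06, -1.91, -1.44 and -1.48, and Dnajb9 at 1.62, 1.69, 1.90 and 1.81. Relative to the median of all features, Herpud1 was -1.89, -1.52, -1.45 and -1.48 and Dnajb9 1.78, 2.09, 1.89 and 1.81. In Fah/p53 -/- livers Herpud1 was called at -1.95, -1.52, -1.35 and -1.33, Dnajb9 at 0.88, 1.18, 1.08 and 1.08 and Pdia4 at -1.37, -0.89, -1.21 and -1.12. Calr in Fah -/- livers was called under all 4, at -0.98, -0.74, -0.37 and -0.35. Pdia4 (-0.25, -0.28 and -0.22), Pdia6 (-0.49, 0.03 and -0.05) and Hyou1 (-0.27, -0.07 and -0.16) were not called in Fah -/- livers under any of the other 3. Without p53 the same held for Hsp90b1 (-0.44, -0.14 and -0.05) and Calr (-0.17, -0.14 and -0.03), and Hyou1 (-0.18, -0.36 and -0.38) lost its call with normexp alone. With sex as a term, Calr and Hyou1 were not called there (adjusted p = 0.175 and 0.0787).

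The level of Hspa5 depended on this choice. Without NTBC in Fah -/- livers it was 0.20 with 75th percentile scaling and 0.36 with normexp (adjusted p = 0.187 and 0.151), and it was called higher at 1.04 with quantile scaling and 0.88 in the deposited values (adjusted p = 4.31e-06 and 8.15e-06). In Fah/p53 -/- livers it was 0.25, then 0.65, 0.99 and 0.88, and the last 3 were called (adjusted p = 0.0161, 7.68e-06 and 7.58e-06). Hsp90b1 was called lower in Fah -/- livers only with 75th percentile scaling, and with the others was -0.42, 0.20 and 0.20 (adjusted p = 0.147, 0.0668 and 0.0683). 

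**Figure D4:**
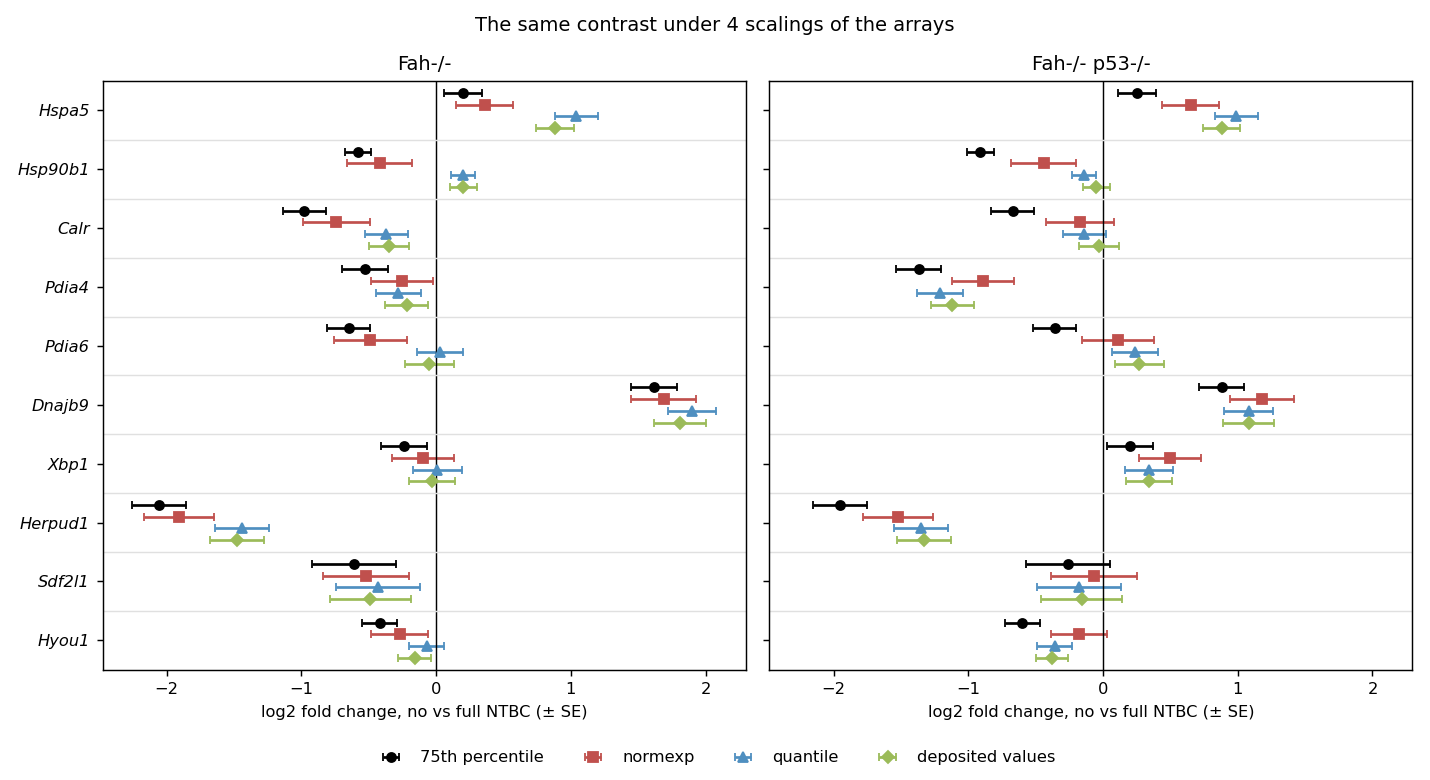
Log2 difference between no and full NTBC for the 10 genes in each genotype under 75th percentile, normexp and quantile scaling and in the deposited values. Herpud1 stays below -1.3 and Dnajb9 above 0.8 throughout, whereas Hsp90b1 and Pdia6 in Fah -/- livers move across 0, Hsp90b1 from -0.58 to 0.20.

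The rest of the ER folding machinery moved in both directions without NTBC. Of 11 sensors and transcription factors of the unfolded protein response, 4 were higher and 3 lower in Fah -/- and 5 higher and 4 lower in Fah/p53 -/- livers, with medians of 0.03 and -0.19 beside -0.17 and -0.14 over all features. Among them, Creb3l2, a membrane-bound transcription factor released by cleavage, rose by 2.31 and 1.63 (adjusted p = 1.74e-10 and 4.47e-08). Eif2ak3, which encodes PERK, rose by 1.14 and 1.32, and Mbtps1, the protease that cuts ATF6, fell by 1.0 and 0.98. Of 16 genes of the PERK and ATF4 branch, 5 were higher and 5 lower in Fah -/- and 8 higher and 3 lower in Fah/p53 -/- livers (medians 0.36 and 0.51). Atf3, a stress-induced transcription factor, rose by 3.01 and 3.48, and Ddit3, which encodes the death-linked factor CHOP, by 1.79 in Fah -/- livers (adjusted p = 1.07e-07).

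Of 23 other ER chaperones and cochaperones, 6 were higher and 10 lower in Fah -/- and 5 higher and 11 lower in Fah/p53 -/- livers (medians -0.15 and -0.26). Sil1, like Hyou1 a nucleotide exchange factor of BiP, fell by 1.87 and 1.94, and Sec63, a J-domain partner of BiP at the translocon, by 2.17 and 1.49. Of 19 other ER oxidoreductases, 4 were higher and 12 lower, and 3 higher and 10 lower (medians -0.45 and -0.36). Ero1a, the oxidase that recharges disulfide isomerases, rose by 3.21 ± 0.21 and 2.13 (adjusted p = 6.19e-12 and 4.87e-09), the opposite direction to Pdia4. Of 23 genes of ER-associated degradation, 6 were higher and 8 lower, and 8 higher and 9 lower (medians 0.06 and -0.01). Os9, a lectin of that pathway, fell by 1.69 and 1.98, and Derl2 by 1.32 and 1.51, beside Herpud1 at -2.06 and -1.95. Of 25 genes of the translocon and signal peptidase, 7 were higher and 9 lower, and 8 higher and 8 lower, with medians of -0.05 and -0.06. Of 21 genes of ER to Golgi transport, 5 were higher and 6 lower, and 7 higher and 5 lower, with medians of -0.11 and -0.06. In these comparisons 70.9% and 69.7% of all features were called. The list genes named here kept direction and call under all 4 scalings in both genotypes, but the lists' balance did not. With quantile scaling the ER to Golgi list held 15 higher and 3 lower in Fah -/- livers (median 0.34), the translocon list 15 and 2 (median 0.31) and the other chaperones 10 and 7 (median 0.24).

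**Figure D5:**
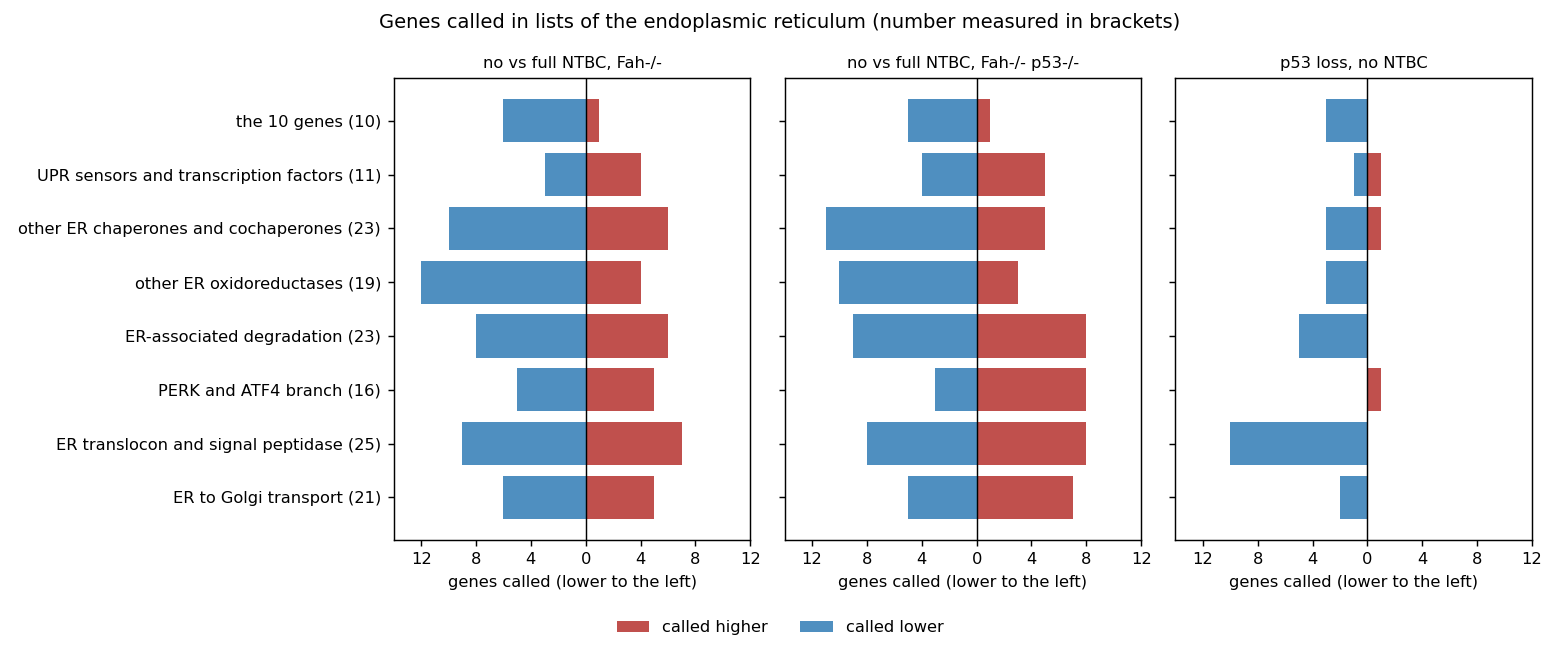
Number of genes called higher (right) and lower (left) among the 10 genes and 7 lists of related ER genes, for no against full NTBC in both genotypes and for p53 loss without NTBC. The 10 genes hold 1 higher and 6 or 5 lower without NTBC, and the oxidoreductases 12 and 10 lower of 19, while quantile scaling gives 6 higher and 7 lower of the latter in Fah -/- livers.

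With p53 loss on full NTBC, 10 of 25 translocon genes, 4 of 23 other chaperones and 6 of 23 degradation genes were called lower and none of these higher, where 13.9% of all features were called. Their medians were -0.29, -0.18 and -0.18, against 0.01 over all features, and the translocon count was 16 with normexp, 6 with quantile scaling and 5 in the deposited values. Fkbp11, a prolyl isomerase of the ER, was lower by 1.73 (adjusted p = 3.66e-06) and Manf, a BiP cofactor, by 0.80, beside Xbp1 at -0.83. Without NTBC, 10 of 25 translocon genes were lower with p53 loss (median -0.23), where 14.3% of all features were called and 6.6% were lower. Under normexp, quantile scaling and the deposited values 4, 6 and 6 were lower, with sex as a term 1, and with slide as a block limma called 0, with 9 at an unadjusted p under 0.05.

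The 10 genes did not vary as 1 block. Over the 28 arrays, 31 of their 45 pairs had a positive Pearson r of log2 level, with a median of 0.435 and a range from -0.775 to 0.905. After each group's mean was subtracted, 21 of 45 were positive, with a median of -0.0837. Calr, Pdia6 and Sdf2l1 varied together within groups (r = 0.834 for Calr and Pdia6, 0.795 for Pdia6 and Sdf2l1, 0.826 for Calr and Sdf2l1), as did Hsp90b1 and Pdia4 (r = 0.74). These values share the arrays and their scaling, and the wide Fah/p53 -/- group on full NTBC enters all of them.

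Among 14539 features compared, the level of Hspa5 over 28 arrays was most like those of Nudt18 (Pearson r = 0.856), Nostrin (0.813), Nt5c3 (0.807), Manf (0.801) and Dync1i2 (0.799). After group means were subtracted, the highest r with Hspa5 were those of Alg12 (0.779), Mphosph8 (0.766), Tmed9 (0.766), Sec24d (0.757) and Sec23b (0.755), of which Sec24d and Sec23b encode coat proteins of vesicles leaving the ER. Herpud1 was most like Cog4 (0.965), Trabd (0.964), Ftcd (0.964), Tbc1d5 (0.962) and Mtss1 (0.962), and within groups like the clock gene Per1 (0.856) and Vps13a (0.838). Xbp1 was most like Rpl4 (0.821), Lama3 (0.815), Trim11 (0.793), Ykt6 (0.785) and Srpr (0.781), the last 2 encoding a transport SNARE and the receptor of the signal recognition particle. These r describe 28 arrays that share groups, slides and scaling.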

How the data were processed

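Total liver RNA on Agilent 1-colour mouse arrays was measured in 28 samples, 4 in each of 7 groups assigned from the labels. The intensity values deposited per array are, per the file headers, spot signals from Agilent Feature Extraction 10.7.3.1 after background subtraction and detrending (version 10.5 per the submitters' processing notes), and its 0/1 flags were used as deposited. The authors also deposited log2 values, whose column medians are 6.89 to 6.912. Their correlation with log2 spot signals of the same arrays is at least 0.917, how they were scaled is not given in the sources used, and they served as an alternative.

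Control spots (1639) and 100 non-uniform spots were left out, spots of a probe were averaged, and log2 signals were set relative to each array's 75th percentile, which ran from 252 to 578. The share of probes above background was 54.8% to 68.5%. Of 41174 probes, 27506 passed the filter (well above background on each of the 4 arrays in at least 1 group), and each gene took its probe with the highest mean. Symbols came from RefSeq through the accession each probe carries, for 28462 probes. limma 3.58.1 in R 4.3.3 fitted a mean per group (21 residual degrees of freedom) and 13 contrasts, with Benjamini-Hochberg adjustment over 20300 features. The script was tested on simulated data.

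Alternatives changed the background correction (normexp on median signals, offset 50), scaling, probe filter, probe choice, arrays, slide, sex, replicate block and a minimum fold of 2. The array without which results are repeated (Fah/p53 -/- replicate 1 on full NTBC) was chosen after the values were seen. The members and lists were chosen with earlier results of these data known. The genes named are the 10 members, members of the sensor list, up to 4 called genes with the largest change per other list, and the 5 features most like Hspa5, Herpud1 and Xbp1. The number of arrays limits the precision. Protein sequences were not used here.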

Additional observations from a re-analysis of the deposited data

Results flagged for a closer look

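Among 70 sets of 4 arrays (10 genes in 7 groups), 2 held an array far from the other 3, by a test that flags about 1 set in 20 by chance. Hspa5 was at 5.08 on replicate 1 of Fah/p53 -/- on full NTBC, against 5.78 to 5.91 on the others. Dnajb9 was at 3.33 on replicate 2 of Fah -/- without NTBC, against 3.81 to 3.85 on the others. Pdia4 differed between genotypes in its response to no NTBC, by -0.83 in the test of the difference itself. There p53 loss cannot be told apart from sex, nor from slide on full NTBC.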

How the results depend on the processing

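Of the 47 calls of a member, 791 refits kept direction and call, 202 kept the direction only and 10 turned it. In the order reduced against full NTBC (Fah -/-, Fah/p53 -/-), no against full, no against reduced, p53 loss (full, reduced, no NTBC), p21 loss, p53 against p21 loss, and the p53 difference in the response to no NTBC, members called changed as follows. Normexp left 0, 2, 3 (no against full, Fah -/-), 2 and 2 (no against reduced), 0 (p53 loss, reduced), 0 (p53 against p21) and 0 (response). Quantile scaling gave 4, 2, 4 (no against full, Fah -/-), 2 (p53 loss, full), 0 (reduced), 1 (p21) and 2 (response). The deposited values gave 3, 2, 4 (no against full, Fah -/-), 0 (p53 loss, reduced), 1 (p21) and 0 (p53 against p21). A minimum 2-fold change (p21 loss, at 0 throughout, aside) left 1, 0, 2, 2, 1, 0, 1, 0, 0, 0 (p53 against p21) and 0. The mean of a gene's probes gave 4 (p53 loss, reduced), 1 (p21) and 2 (response). Fitting only the groups compared gave 2 (reduced against full, Fah/p53 -/-), 1 (p53 loss, full), 0 (p53 against p21) and 0 (response), and no filter 0 (p53 against p21). Slide as a fixed block gave 1 (p53 loss, no NTBC) and 0 (p53 against p21), within the shared slide 0 and 0, slide as a random block 1 (p53 loss, reduced), and the sex term 3 (no against reduced, Fah/p53 -/-) and 1 (p53 loss, no NTBC). Leaving out 1 array gave 3 to 8 (reduced against full, Fah/p53 -/-), 1 to 4, 0 to 3 (p53 loss, full and reduced), 0 to 1 (p21, and p53 against p21) and 0 to 2 (response).

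Over all features, normexp called 2002 of 8071 (reduced against full, Fah -/-), 6733 of 13049 and 5688 of 12444 (no against reduced), 221 of 3172 and 726 of 2893 (p53 loss, reduced and no NTBC), 183 of 1529 (p21), 466 of 2234 (p53 against p21), 78 of 2106 and 239 of 1852 (responses to reduced and no NTBC). No filter called 12236 against 8086 (reduced against full, Fah/p53 -/-), 22529 against 14386 and 21609 against 14157 (no against full), 20627 (no against reduced, Fah -/-) and 6517 (p53 loss, reduced), where the deposited values gave 2104 and a filter on all 28 arrays 2060. A minimum 2-fold change left 2504, 2327, 7786, 7700, 5913, 5651, 868 (of 2828, p53 loss, full), 1094, 937, 597, 662, 1039 (response to reduced) and 1018. Fitting only the groups compared called 1335 (p53 loss, no NTBC), 351 (p21) and 491 (p53 against p21), the slide block 343, 85 and 188, and the shared slide 214, 49 and 0. The sex term called 277 (p53 loss, no NTBC), 545 (p21) and 604 (response to no NTBC). Leaving out 1 array gave 1910 to 3391, 783 to 1491, 1365 to 3663 and, for the response to reduced NTBC, 1400 to 2306.

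Differences whose direction turned were negative in the report, and all but that of Hspa5 (-0.18, not called) were calls. The turned values were, with normexp on reduced against full NTBC in Fah/p53 -/- livers, Hspa5 0.59, Hsp90b1 0.01, Calr 0.05 and Pdia6 0.14. With quantile scaling they were Hsp90b1 0.20 (no against full, Fah -/-), 0.32 and 0.09 (no against reduced) and Pdia6 0.03, and in the deposited values Hsp90b1 0.20, 0.29 and 0.15. Of these, Hspa5 0.59 and Hsp90b1 0.32 and 0.29 were called higher. The cause was not tested. With normexp the share of higher calls moved from 50.9% to 24.6% (reduced against full, Fah/p53 -/-), 41.4% to 30.9% and 42.5% to 32.2% (no against full), 45.5% to 22.4% and 62.9% to 51.1% (p53 loss, full and reduced) and 65% to 75.6% (response to reduced), and in the deposited values from 37.8% to 48.6% (no against reduced, Fah/p53 -/-). With a replicate block, members called were 1 (p53 loss, reduced) and 2 (response to no NTBC). The arrays were not treated as paired by these numbers, since in 0 of 11 comparisons did every same-numbered pair correlate above 0.1 (r from -0.226 to 0.356). Pairing is not excluded by this, as some pairs did correlate above 0.1.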
